A study of Mus musculus with 8 samples.

Results

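The proteasome subunit genes were compared in the hippocampus of aged transgenic mice with impaired and with intact memory. They were chosen by name, with earlier results of these data known. The rule took all genes of the array's probe table with a symbol of the form Psma, Psmb, Psmc or Psmd followed by a number. It left out the immunoproteasome genes Psmb8 and Psmb9. This gave 36 of 19505 named genes, each read by 1 probe set. Of these, 16 encode the core particle (Psma and Psmb) and 20 are counted here with the regulatory particle (Psmc and Psmd). The 20 include 3 assembly chaperones (Psmd5, Psmd9 and Psmd10). Psmb5, a gene for a catalytic subunit of the core, was not among the 19505 named genes analysed and has no value here. Memory-impaired mice (4) and memory-intact mice (4) all carried an amyloid precursor protein transgene with the Swedish mutation (B6.Cg-Tg(APPswe)E1-2Dbo/J) and were 18 to 20 months old. All had been through the Morris water maze, in which a mouse learns where a platform lies hidden under water, and 1 array was made from the hippocampus of each. No mice without the transgene were among them, and the criterion for impaired memory is not given in the sources used here.

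The proteasome is the main protease of the cytosol and nucleus. It degrades proteins that carry chains of ubiquitin. Its core is a barrel of stacked rings. The outer rings of alpha subunits form the gate, and the inner rings of beta subunits carry the cutting sites inside the chamber. The regulatory particle caps the barrel. It binds ubiquitin, removes it, and unfolds the protein with a ring of ATPases that threads it into the core. In neurons the proteasome also takes part in the turnover of synaptic proteins, and it has long been studied in Alzheimer disease because of the ubiquitin found in its deposits.

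The array's values are log2 expression after robust multi-array averaging (RMA), so that a difference of 1 is a doubling. A probe set's signal also depends on its sequence, so that levels of different genes were not set against each other. The number of arrays, 4 a group, limits the precision. Over all named genes, array medians were 7.02 to 7.05 and pairs of arrays correlated at 0.987 to 0.992. Of 5222 probe sets for introns, a background on this array, 75% had a mean below 6.30 and 95% a mean below 7.92. Markers of neurons, dentate granule cells, CA1, CA3, astrocytes, microglia and endothelium, as far as measured, all had means above 6.30. So did 10 of 11 choroid plexus markers and 10 of 10 thalamus markers, which come from tissue that borders the hippocampus. In impaired mice 0 of 11 plexus markers and 10 of 10 thalamus markers had a higher mean. The mean deviation of the plexus markers was lowest in impaired mouse 3, at -1.03, and in intact mouse 3, at -0.99, and that of the thalamus markers was -1.37 in intact mouse 3 and -0.19 to 0.46 in the others. Their part in the results was not tested beyond the fits that carry these scores or leave these mice out. The 5 neuronal markers were lower in impaired mice by 0.086 on average, with overlapping scores of -0.14 to 0.060 in impaired and -0.023 to 0.090 in intact mice. Alas2, the only erythrocyte marker measured, did not overlap between the groups, with scores of -0.52 to 0.018 in impaired and 0.12 to 0.26 in intact mice and a difference of -0.41. In impaired mice 0 of 4 endothelial and 0 of 5 oligodendrocyte markers had a higher mean (mean differences -0.14 and -0.11), while 6 of 7 markers of meningeal fibroblasts did (0.20), and the scores of these 3 lists overlapped. In whole tissue, fewer cells of a type and less RNA per cell cannot be told apart.

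The proteasome subunit genes lay at much the same level in impaired and intact mice, and none passed the test. With limma, 0 of 36 had an adjusted p under 0.05, where 0% of all 19505 genes did. At an unadjusted p under 0.05 there were 0 of 36, against 4.94% of all genes. Differences ran from -0.14 for Psma8 to 0.16 for Psmc4, or 0.908-fold to 1.12-fold. Of the 36 genes, 23 had a higher and 13 (36.1%) a lower mean in impaired mice, where 50.4% of all genes had a lower mean. The median difference was 0.019, against -0.0013 over all genes. Of the 6722 genes with a mean above 7.92, a level that 31 members passed, 57.6% were lower, with a median of -0.018. Without impaired mouse 4 the median of the members was -0.00090, with 18 of 36 genes lower. Limma's standard errors, here and below, combine a gene's own spread with that of all genes. The 95% intervals built on them give a range of differences in RMA values for each gene. They hold gene by gene and not for all genes jointly. Among the 34 members with a mean above 6.30, these intervals reached from -0.37 (Psmd9) to 0.47 (Psmb10), and all 34 lay within a log2 difference of 0.5 in either direction. Among all genes above that level, 90.7% had such an interval.

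**Figure D1:**
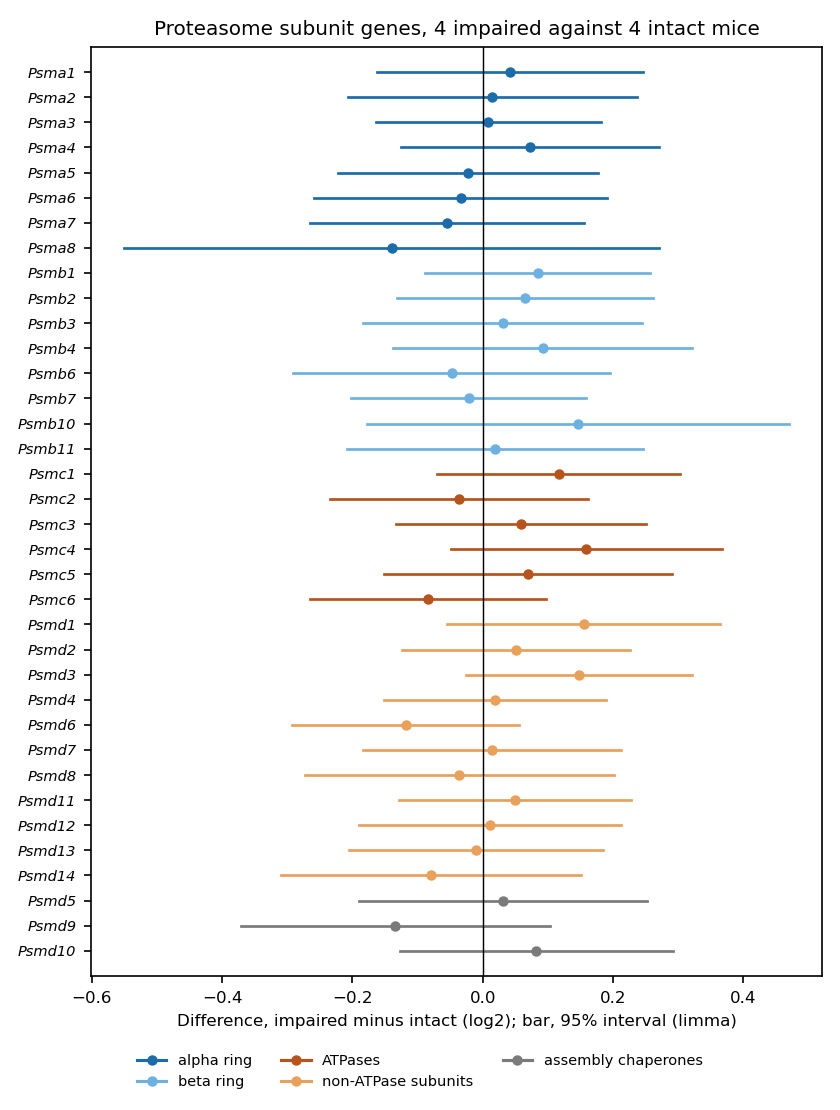
Difference in log2 expression, impaired minus intact, for each of the 36 proteasome subunit genes (point) with its 95% interval from limma (bar), coloured by role. Every interval crosses 0, and the widest, of Psma8, runs from -0.55 to 0.27.

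Most of these genes had promoters rich in CG dinucleotides, a property that the choice of members did not use. RefSeq windows of GRCm38.p6 that span 250 bases before to 50 after a gene's start were found for 29 of the 36 genes, 31 windows in all, and not for Psma8, Psmb1, Psmb2, Psmb7, Psmc3, Psmd3 and Psmd7. Of these, 28 (90.3%) held at least 10 CG dinucleotides, against 59.1% of 19143 windows of genes on the array, and the medians were 19 and 14. The windows with fewer were those of Psmb10 and Psmb11 and 1 of the 2 windows of Psma6. Psmb10 encodes the beta subunit that replaces Psmb7 in the immunoproteasome and is induced by interferon, and Psmb11 encodes a beta subunit of the thymus. The next 4 windows show the contrast, with CG in capitals: Psmc4 and Psmd6, subunits of the regulatory particle, with 34 and 16, and Psmb10 and Psmb11, with 3 and 4. They lie at chr7:28050043-28050342 (minus strand), chr14:14120896-14121195 (minus strand), chr8:105938343-105938642 (minus strand) and chr14:54625060-54625359 (plus strand).
Psmc4: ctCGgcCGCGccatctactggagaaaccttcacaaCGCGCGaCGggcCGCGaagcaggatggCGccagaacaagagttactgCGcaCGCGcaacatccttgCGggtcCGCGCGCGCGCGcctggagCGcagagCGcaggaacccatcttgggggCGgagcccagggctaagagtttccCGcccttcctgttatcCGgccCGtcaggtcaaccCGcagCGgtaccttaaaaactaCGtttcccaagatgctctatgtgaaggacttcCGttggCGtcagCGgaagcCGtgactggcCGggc
Psmd6: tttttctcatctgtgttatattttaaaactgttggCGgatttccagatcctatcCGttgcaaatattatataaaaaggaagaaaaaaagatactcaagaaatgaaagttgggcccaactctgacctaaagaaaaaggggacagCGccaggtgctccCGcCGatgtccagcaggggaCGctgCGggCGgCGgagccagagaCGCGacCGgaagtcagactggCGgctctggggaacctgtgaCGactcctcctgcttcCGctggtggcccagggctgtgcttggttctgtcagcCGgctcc
Psmb10: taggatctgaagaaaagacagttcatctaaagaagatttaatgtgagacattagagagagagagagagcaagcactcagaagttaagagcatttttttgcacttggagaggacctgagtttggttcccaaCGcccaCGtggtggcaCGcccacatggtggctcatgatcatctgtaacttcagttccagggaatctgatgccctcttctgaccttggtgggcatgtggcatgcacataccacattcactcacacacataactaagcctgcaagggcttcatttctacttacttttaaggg
Psmb11: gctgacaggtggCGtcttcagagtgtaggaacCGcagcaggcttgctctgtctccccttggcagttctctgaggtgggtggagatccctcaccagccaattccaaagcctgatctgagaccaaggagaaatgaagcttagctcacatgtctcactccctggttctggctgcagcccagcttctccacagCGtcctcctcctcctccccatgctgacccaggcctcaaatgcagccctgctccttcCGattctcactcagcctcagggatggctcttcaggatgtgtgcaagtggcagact
The core of the antioxidant response element (TGACNNNGC, either strand), which the transcription factors encoded by Nfe2l1 and Nfe2l2 bind, was found in 4 of the 31 windows (12.9%), those of Psmb6, Psmc6, Psmd9 and Psmd12, against 12.4% of all 32851 windows. CCAAT, on either strand, stood in 12 (38.7%), against 37.4%, and TATAAA in 3 (9.68%), against 13.6%. All 32851 windows held fewer CG dinucleotides (median 7) than the windows of genes on the array (median 14). Motif shares in the latter were not computed. A match is a stretch of letters and not a binding site.

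The alpha ring genes, whose products form the gate and the face on which the regulatory particle docks, were split evenly, with 4 higher and 4 lower in impaired mice and a median difference of -0.0070. Psma4 had the highest difference, 0.073 (95% interval -0.12 to 0.27). Psma1, Psma2 and Psma3 differed by 0.042, 0.015 and 0.0086. Psma5, Psma6 and Psma7 differed by -0.023, -0.033 and -0.055. Psma8, the testis-specific relative of Psma7,, was the only member among the dimmest 25% of genes. Its values were 4.84, 4.51, 4.84 and 5.37 in impaired mice 1 to 4, against 4.68, 5.25, 5.21 and 4.98 in intact mice 1 to 4. The groups overlapped, and every value lay below the 6.30 of the introns. The ring as a whole varied between mice of the same group. In impaired mouse 3 all 8 genes lay below their own means, and in intact mouse 1 so did 7 of 8. The ring's mean deviation was -0.084 and -0.11 in these 2 mice and -0.11 to 0.056 over all 8.

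In the beta ring, 6 genes were higher and 2 lower in impaired mice, with a median difference of 0.048. Of the genes for the constitutive cutting sites, Psmb5 had no value here. Psmb6 (the caspase-like site) stood at 10.21, 10.03, 10.26 and 10.48 in impaired mice 1 to 4, against 10.25, 10.27, 10.21 and 10.44 in intact mice. Psmb7 (the trypsin-like site) stood at 9.98, 10.02, 9.93 and 9.91 in impaired mice, against 9.92, 10.07, 10.02 and 9.91 in intact mice. For both the groups overlapped almost wholly, with differences of -0.047 (-0.29 to 0.20) and -0.021 (-0.20 to 0.16). Psmb10, the inducible counterpart of Psmb7, varied more: 8.12, 7.83, 7.95 and 7.80 in impaired mice, against 7.76, 7.52, 8.19 and 7.64 in intact mice. The highest and the lowest of these values were both from intact mice. Its difference was 0.15 (standard error 0.15, limma, adjusted p = 0.964). Leaving out intact mouse 3 gave 0.28, with an unadjusted p under 0.05 and an adjusted p of 0.928 (limma), and the plexus score as a covariate gave 0.048. It was 0.082 without impaired mouse 1 and 0.060 without intact mouse 2.

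Among the structural beta subunits, Psmb1 measured 10.15, 10.07, 10.20 and 10.09 in impaired mice, against 10.02, 10.10, 10.0025 and 10.05 in intact mice. Its difference was 0.084 (standard error 0.078), or 0.048 without mouse 3 of both groups, and intact mouse 2 reached into the impaired range. Psmb4 measured 8.88, 8.85, 8.90 and 8.85 in impaired mice, against 8.72, 8.66, 8.69 and 9.06 in intact mice. Thus 3 intact mice lay below all impaired mice and intact mouse 4 above all of them. Without that mouse the difference of Psmb4 was 0.19, and with it 0.092 (standard error 0.10, limma, adjusted p = 0.964). It was 0.052 without intact mouse 2, 0.061 without intact mouse 3, 0.051 without mouse 3 of both groups and 0.050 with the plexus and thalamus scores as covariates. Psmb2 and Psmb3 differed by 0.065 and 0.031. Psmb11 had values of 6.04, 5.91, 6.14 and 6.12 in impaired mice, against 6.26, 5.95, 5.92 and 6.01 in intact mice, with all of them below the 6.30 of the introns. The values of Psmb11 lay above the arrays' intron medians of 5.24 to 5.34. They were thus within the range of the intron probe sets, and whether this thymic subunit gave a signal was not tested.

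The ATPase genes encode the ring that unfolds substrates, and 4 of 6 were higher in impaired mice, with a median difference of 0.064. Psmc4 measured 9.47, 9.56, 9.59 and 9.55 in impaired mice, against 9.35, 9.36, 9.24 and 9.58 in intact mice. All impaired mice lay above intact mice 1, 2 and 3, and intact mouse 4 lay within the impaired range. The means were 9.54 ± 0.050 in impaired and 9.38 ± 0.14 in intact mice (SD, n = 4 each), a difference of 0.16 (standard error 0.093; limma's adjusted p = 0.963). Leaving out intact mouse 4 gave 0.23, with an unadjusted p under 0.05 and an adjusted p of 0.876, and leaving out mouse 3 of both groups, an alternative chosen after seeing the data, gave 0.096. With the plexus and thalamus scores as covariates it was 0.10. Psmc1 measured 9.57, 9.63, 9.65 and 9.53 in impaired mice, against 9.41, 9.40, 9.52 and 9.58 in intact mice, so that only intact mouse 4 reached into the impaired range, and it differed by 0.12 (standard error 0.084), or by 0.059 with both scores as covariates. Psmc6 was lower, at 8.62, 8.70, 8.63 and 8.57 in impaired mice, against 8.76, 8.79, 8.70 and 8.61 in intact mice. Intact mouse 4 lay within the impaired range, intact mouse 3 level with the highest impaired mouse, and the difference was -0.083 (standard error 0.081). Psmc2, Psmc3 and Psmc5 differed by -0.036, 0.058 and 0.069.

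**Figure D2:**
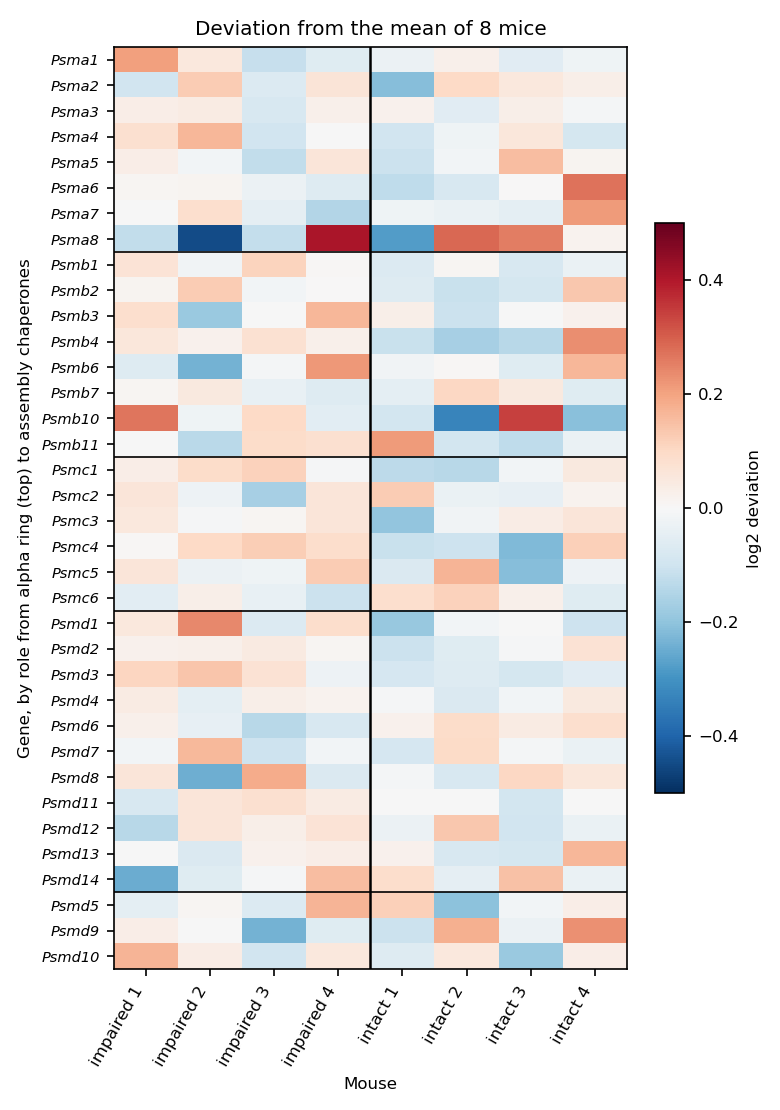
Deviation of each gene from its own mean over the 8 mice (colour, log2 units), with impaired mice left and intact mice right of the line and roles separated by lines. The alpha ring is low in impaired mouse 3 and intact mouse 1, and the widest swings are those of Psma8 and Psmb10.

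Of the 11 genes for non-ATPase subunits of the base and lid, 7 were higher and 4 lower in impaired mice, with a median difference of 0.015. Psmd3, a structural subunit of the lid, was the only member whose groups did not overlap. It measured 9.88, 9.91, 9.84 and 9.75 in impaired mice, against 9.69, 9.71, 9.68 and 9.71 in intact mice. Of all genes, 1.47% had all impaired mice above all intact mice, and 1.29% had them below, where there was no member. The mean of Psmd3 was 9.85 ± 0.071 in impaired mice and 9.70 ± 0.014 in intact mice (SD, n = 4 each), a difference of 0.15 (1.11-fold, standard error 0.078; limma's adjusted p = 0.963). The 95% interval ran from -0.026 to 0.32. When limma's prior was made robust and followed the intensity, Psmd3 had an unadjusted p under 0.05 and an adjusted p of 0.966.

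Psmd1, the large scaffold of the base, measured 9.84, 10.02, 9.72 and 9.87 in impaired mice, against 9.60, 9.77, 9.79 and 9.68 in intact mice. The groups overlapped through impaired mouse 3, and the difference was 0.15 (standard error 0.094, limma, adjusted p = 0.963). It was 0.10 without impaired mouse 2 and 0.20 without impaired mouse 3. Psmd6, a lid subunit, was lower in impaired mice, at 8.98, 8.92, 8.82 and 8.88, against 8.98, 9.05, 8.997 and 9.04 in intact mice. Here impaired mouse 1 alone reached the intact range, and the difference was -0.12 (standard error 0.078, limma, adjusted p = 0.964). Psmd14, the deubiquitinase that cuts the ubiquitin chain off at the entrance, measured 8.86, 9.05, 9.11 and 9.27 in impaired mice, against 9.20, 9.07, 9.26 and 9.08 in intact mice. The lowest and the highest of these values were both from impaired mice, and the difference was -0.079 (-0.31 to 0.15). Psmd7, which pairs with Psmd14 in the lid, measured 11.05, 11.22, 10.96 and 11.05 in impaired mice, against 10.98, 11.16, 11.05 and 11.03 in intact mice. Psmd13, another lid subunit, measured 10.11, 10.04, 10.13 and 10.14 in impaired mice, against 10.14, 10.03, 10.02 and 10.28 in intact mice. Both differed by less than the spread between mice, by 0.015 and -0.010. Psmd4, a ubiquitin receptor, and Psmd2, which docks shuttle factors, differed by 0.019 and 0.051. Psmd8, Psmd11 and Psmd12 of the lid differed by -0.036, 0.050 and 0.011.

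**Figure D3:**
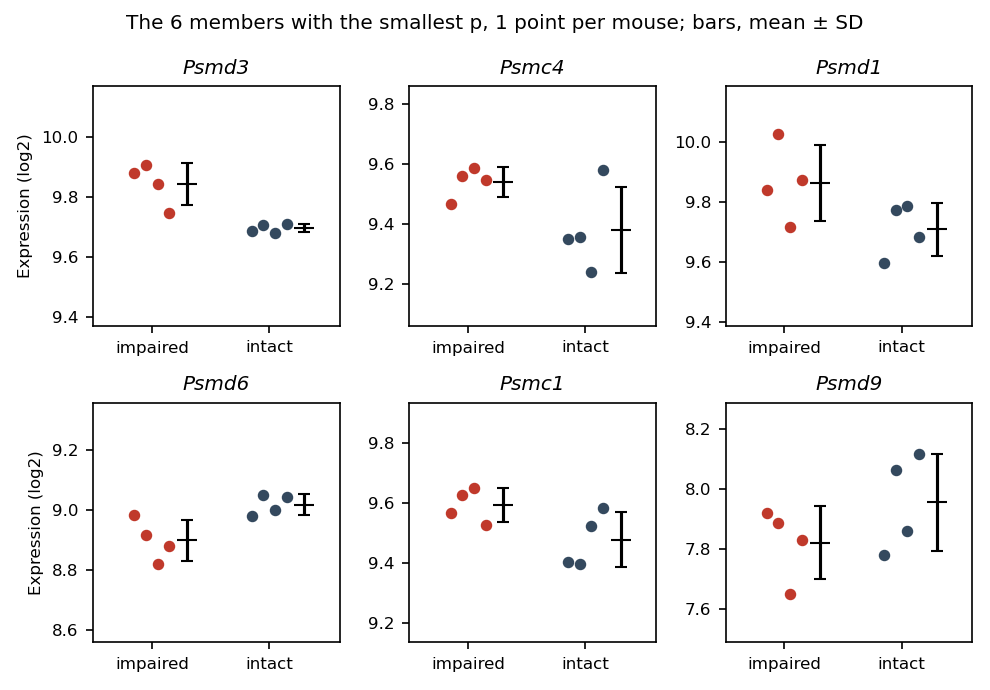
Log2 expression per mouse of the 6 proteasome subunit genes with the smallest p, impaired left and intact right, with mean and SD (n = 4 each) beside the points and the same span on each vertical axis. Only for Psmd3 do the groups not overlap.

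The remaining 3 members encode chaperones that help assemble the ATPase ring and leave the finished particle. Psmd9 measured 7.92, 7.89, 7.65 and 7.83 in impaired mice, against 7.78, 8.06, 7.86 and 8.12 in intact mice, with overlapping groups and a difference of -0.13 (standard error 0.11, limma, adjusted p = 0.964). It was -0.077 without impaired mouse 3, -0.080 without intact mouse 4 and -0.19 without intact mouse 1. Psmd10, also known as gankyrin, measured 7.74, 7.61, 7.48 and 7.62 in impaired mice, against 7.51, 7.62, 7.38 and 7.60 in intact mice. Its difference was 0.082 (-0.13 to 0.29), and that of Psmd5 was 0.031 (-0.19 to 0.25). In impaired mouse 3 and in intact mouse 3, all 3 chaperone genes lay below their means over the 8 mice.

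Core and regulatory genes had similar differences between the groups. The median difference, impaired minus intact, was 0.017 over the 16 core genes and 0.025 over the 20 regulatory genes, so that core minus regulatory was -0.0084. This small value changed sign without intact mouse 1 (0.016), without intact mouse 3 (0.012), without mouse 3 of both groups (0.027) and with the marker scores as covariates (0.0018 and 0.020). Without Psma8, Psmb10, Psmb11 and the 3 assembly chaperones, the medians were 0.015 (13 core genes) and 0.019 (17 regulatory genes). Core minus regulatory was then -0.0041. The mean deviation of the core genes was 0.036, -0.023, -0.022 and 0.041 in impaired mice 1 to 4, against -0.063, -0.030, 0.021 and 0.040 in intact mice 1 to 4. For the regulatory genes it was 0.0074, 0.021, -0.012 and 0.030 in impaired mice, against -0.037, -0.0038, -0.037 and 0.031 in intact mice. The groups overlapped in both classes. The difference between the classes within a mouse was 0.029, -0.044, -0.011 and 0.011 in impaired mice, against -0.027, -0.027, 0.059 and 0.0094 in intact mice, and intact mouse 3 stood highest. Of the 36 genes, 24, 20, 14 and 23 lay above their own means in impaired mice 1 to 4, against 9, 13, 13 and 21 in intact mice 1 to 4.

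**Figure D4:**
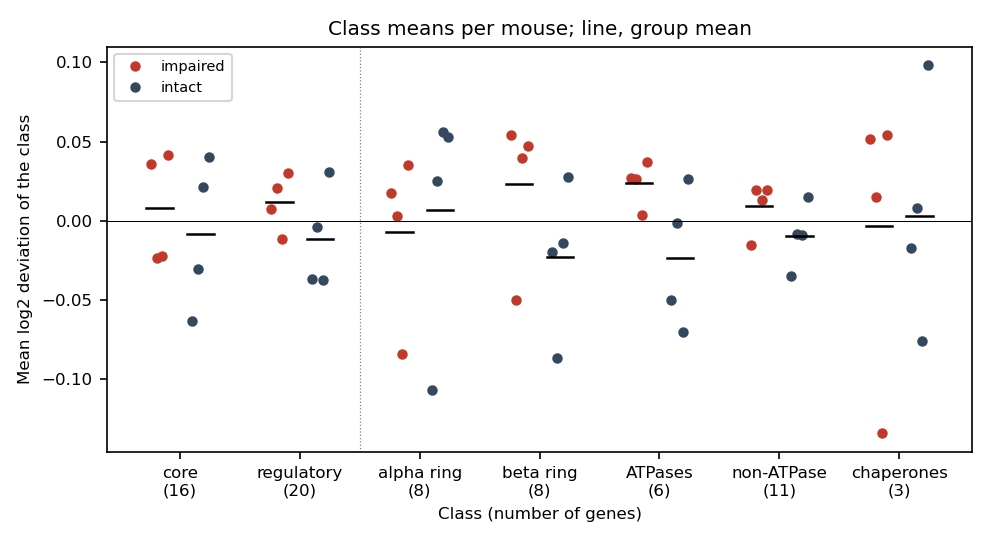
Mean log2 deviation of each class of proteasome subunit genes per mouse (points, impaired left and intact right within each class; line, mean of 4 mice). The groups overlap in each class, and the alpha ring and the assembly chaperones spread most.

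The proteasome genes varied little between mice of the same group. Their within-group SD had a median of 0.0997, against 0.173 over all genes and 0.118 over the 6722 genes with a mean above 7.92, a level that 31 of the 36 members passed. For 34 members it was below the median of all genes and for 24 below that of the genes above 7.92. The smallest were 0.045 for Psmd4 and 0.049 for Psma3. The largest were 0.31 for Psma8 and 0.23 for Psmb10. These are the testis form and the inducible form, and the other members all had an SD of at most 0.15.

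**Figure D5:**
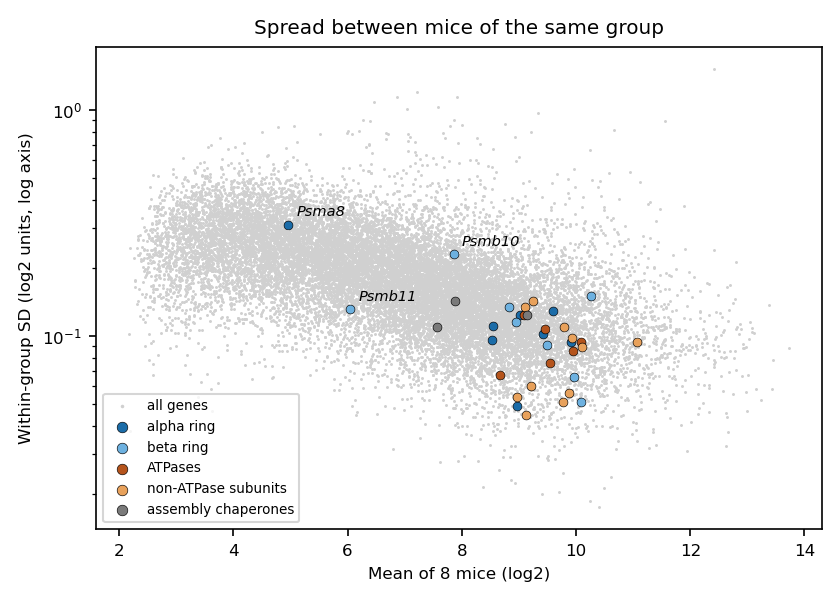
Within-group SD (vertical, log axis, log2 units) against mean expression over 8 mice (horizontal, log2) for all genes in grey and for the proteasome subunit genes in colour by role. Psma8 and Psmb10 lie above the other members, whose SD is at most 0.15.

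Of the genes that work with the proteasome, 26 of 37 listed names were measured, and 0 passed an adjusted p of 0.05 in either direction. At an unadjusted p under 0.05 there were 2 of 26, both lower in impaired mice, against 4.94% of all genes, so that the count itself is close to the background. Nfe2l1, the transcription factor that raises proteasome genes when proteasome activity falls, measured 11.18, 11.20, 10.85 and 11.38 in impaired mice, against 11.53, 11.47, 11.52 and 11.29 in intact mice. Impaired mouse 4 lay above intact mouse 4, and all other impaired mice lay below all intact mice. The difference was -0.30 (standard error 0.12, limma, adjusted p = 0.963). It was -0.20 without impaired mouse 3, -0.18 without mouse 3 of both groups and -0.14 with the plexus and thalamus scores as covariates. Psme4, a proteasome activator that opens the gate without ATP, measured 7.42, 7.65, 6.9997 and 7.60 in impaired mice, against 7.97, 7.71, 7.63 and 7.79 in intact mice. Impaired mouse 2 reached into the intact range, and the difference was -0.36 (standard error 0.15, limma, adjusted p = 0.963). It was -0.22 without impaired mouse 3 and -0.19 with both scores as covariates.

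Ngly1, which strips sugars from the Nfe2l1 protein, measured 6.34, 6.45, 6.34 and 6.37 in impaired mice, against 6.73, 6.61, 6.38 and 6.52 in intact mice, a difference of -0.19 (standard error 0.095). Its mean of 6.47 lay near the 6.30 of the introns. The difference of Ngly1 was -0.13 without intact mouse 1, -0.13 with the plexus score as a covariate and -0.25 without intact mouse 3. Vcp, the ATPase that pulls ubiquitylated proteins out of complexes, measured 8.72, 9.02, 8.69 and 8.94 in impaired mice, against 9.18, 8.90, 9.13 and 8.92 in intact mice, a difference of -0.19 (standard error 0.11). Uchl5, a deubiquitinase of the regulatory particle, measured 9.36, 9.23, 9.28 and 9.10 in impaired mice, against 9.07, 9.28, 8.91 and 9.05 in intact mice, a difference of 0.16 (standard error 0.10). Without mouse 3 of both groups the difference was -0.11 for Vcp and 0.097 for Uchl5. With both scores as covariates it was -0.12 for Vcp, and without intact mouse 3 it was 0.11 for Uchl5. For these 3 genes the groups overlapped and the adjusted p was 0.963 (limma). Psmb8 and Psmb9, the other inducible cutting sites, lay near the intron background. Psmb8 measured 6.16, 6.30, 6.56 and 6.49 in impaired mice, against 6.36, 6.66, 6.71 and 6.26 in intact mice. Psmb9 measured 5.61, 5.64, 5.98 and 6.01 in impaired mice, against 5.65, 5.72, 5.56 and 5.74 in intact mice. The difference was -0.12 for Psmb8 (standard error 0.13) and 0.14 for Psmb9 (standard error 0.11), and the groups overlapped for both. Leaving out 1 mouse gave -0.046 (without impaired mouse 1) to -0.20 (without intact mouse 4) for Psmb8, with -0.049 without intact mouse 3, -0.066 without intact mouse 2 and -0.18 without impaired mouse 3. For Psmb9 it gave 0.077 without impaired mouse 4 and 0.085 without impaired mouse 3. Without mouse 3 of both groups Psmb9 differed by 0.050, and with both scores as covariates by 0.095, where Psmb8 differed by -0.20. Over the 26 genes, 11 were higher and 15 (57.7%) lower in impaired mice, where 50.4% of all genes were lower. The median difference was -0.033, against -0.0013 over all genes.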

How the data were processed

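The hippocampus of each of 8 mice was profiled on an Affymetrix array with 1 colour. Per the labels' protocols, sense cDNA was made from 1 ng of total RNA and biotinylated. The authors deposited log2 values from RMA, per the submitters' processing notes, which name no settings. As a method, RMA combines background correction, quantile normalization between arrays and a summary over probes, and so makes arrays alike in distribution and compresses differences of dim genes. Neither a software version nor a build is given in the sources used here.

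Gene symbols come from the probe table of the platform (19572 probe sets with 1 symbol, 0 with several), and of 19505 genes the 55 with several probe sets were represented by the brightest. No expression filter was used. Differences, impaired minus intact, were tested in all genes by the two-sided moderated test of limma 3.58.1 (lmFit, then eBayes; R 4.3.3), with p adjusted by Benjamini-Hochberg and a threshold of 0.05. Lists were described by counts and medians, without a set test. The members, the lists and the rule for named genes were chosen with earlier results of these data known. That rule gave values per mouse for the 10 members with the smallest p, those without overlap, and the 3 highest and 3 lowest. It also gave them for the catalytic subunits with a value (Psmb6, Psmb7 and Psmb10), Psmd14, Psma8 and Psmb11. Outside the members it gave them for Psmb8, Psmb9 and the 5 other pathway genes with the smallest p. A marker score is the average, over a list, of each gene's deviation from its own mean. The procedure was tested on simulated data. The labels call the samples biological replicates, and no 2 arrays were identical. Same-numbered mice were no more alike than others: their deviations correlated at -0.093 to 0.022 across genes, against -0.087 to 0.092 for other pairs. Whether same-numbered mice shared a dissection or batch was not tested. Alternatives were scaling, variance model, array weights, a filter on dim genes, probe sets, the replicate block, marker scores as covariates, narrower classes and leaving out mice.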

Additional observations from a re-analysis of the deposited data

Results flagged for a closer look

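Of 92 groups of 4 mice checked (each member, named pathway gene and class score in each group), 4 held a mouse far from the other 3 of its group. Chance gives this in about 1 of 20 groups. Psma3 stood at 8.88 in impaired mouse 3, against 8.98 to 8.997 in the other impaired mice. Psma7 stood at 8.76 in intact mouse 4, against 8.51 to 8.53 in the other intact mice. Psmb4 stood at 9.06 in intact mouse 4, against 8.66 to 8.72 in the other intact mice. Psmd11 stood at 9.13 in intact mouse 3, with the other intact mice all at 9.22.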

How the results depend on the processing

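Under each of 18 other fits, 0 of the 36 members (35 without the dimmest 25% of genes) passed an adjusted p of 0.05. The 10 members and 7 other genes followed kept their direction in each. Most of them were picked for the smallest p in these data, and the fits share most of their mice. The robust prior, the mean of probe sets, the replicate block and the filter on dim genes cannot change these differences. A kept direction is therefore no added support. When limma's prior was robust and followed the intensity, 1 gene of all passed an adjusted p of 0.05, and 1 member, Psmd3, had an unadjusted p under 0.05. Over the fits that left out 1 mouse this count was 0 to 1: Psmb10 without intact mouse 3 and Psmc4 without intact mouse 4. With quantile normalization of the gene table the median difference of the regulatory genes was 0.052, and the cause was not tested. Otherwise the medians moved by less than the spread between mice, that of all members from -0.00090 (without impaired mouse 4) to 0.044, the core median from -0.0040 to 0.048, the regulatory median from 0.012 to 0.046 and core minus regulatory from -0.041 to 0.027. The number of members lower in impaired mice was 9 to 18. Over all settings the lowest adjusted p of a member was 0.750, for Psmd3 without impaired mouse 4. With the replicate block no member passed (limma, lowest adjusted p 0.984, 0 members with an unadjusted p under 0.05). Across genes, same-numbered mice were no more alike than others. Without mouse 3 of both groups, chosen after seeing the data, 0 members passed. Psma8 and Psmb11 had a signal below the introns' 75% level, which limits what their values show.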
